A study of Rattus norvegicus with 3 samples.

Results

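Bipolar cells carry the signal of the photoreceptors to the inner retina, and 10 genes that mark them or work in them were followed in the neonatal rat retina: Grm6, Trpm1, Gng13, Pcp2, Prkca, Cabp5, Scgn, Vsx1, Bhlhe23 and Lhx4. They were picked by gene symbol from a table of 18425 genes, in which all 10 were listed. The rule used no measured value, but the members were chosen with earlier results of these data known. RNA was sequenced from retinas of wild-type Sprague Dawley rats at P4 (postnatal day 4), in 3 libraries with 1 library per condition. Each eye had received 1 µl into the vitreous at P1. The Buffer library came from eyes given citrate buffer of pH 4.5, the Saline library from eyes given saline, and the STZ library from eyes given 10 µg of streptozotocin (STZ) diluted from a stock in that citrate buffer. STZ is a methylating nitrosourea linked to glucosamine, best known as a toxin of pancreatic beta cells. In the intravitreal work of the study, STZ went into right eyes and citrate buffer into the left eyes of the same animals. Whether the STZ and Buffer libraries came from such pairs is not stated. The number of animals or retinas behind each library is not given in the sources used here.

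Bipolar cells are among the last neurons born in the rodent retina, together with most rods and the Müller glia, so many of their genes are still being switched on in the first postnatal days. ON bipolar cells sense glutamate from photoreceptors through the receptor mGluR6, the product of Grm6. In the dark this receptor holds the cation channel TRPM1 closed through the G protein Gαo and its partners, and light lets the channel open. Rod bipolar cells are ON cells. Cone bipolar cells come in ON and OFF types that are told apart by their transcription factors and calcium-binding proteins.

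The total of rounded read counts was between 21977846 and 22031241 per library, so the depth was nearly equal. Levels are given as FPKM, a read density scaled by transcript length and library size, which can be compared between genes, and as reads, which show the precision. With 1 library per condition there is no replicate error, no p-value was computed, and every difference below is a difference between libraries. The intervals in the text are exact 95% Clopper-Pearson intervals of the ratio of a gene's shares in a pair of libraries. They cover counting error only, since no condition has a replicate library. They can be too narrow even for that, since several reads can come from 1 molecule when no molecular identifiers are used. In RNA of a whole retina, fewer cells of a type and less RNA per cell cannot be told apart.

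The stretch of 250 bases before the annotated start is shown for 4 members on which the comparisons turn. Grm6 and Prkca were higher in STZ than in both controls, Lhx4 was lower than in both, and Trpm1 stood apart in Saline. The sequences are from RefSeq, build GRCr8, which is not the build of the deposited values (rn6). They run 5′ to 3′ on the strand of the gene: Grm6 at chr10:35668753-35669002 (plus strand), Prkca at chr10:93787328-93787577 (minus strand), Lhx4 at chr13:70467506-70467755 (minus strand) and Trpm1 at chr1:127130436-127130685 (plus strand). Capitals mark matches on either strand to TAATCC, the core bound by OTX2 and CRX, to TAATTA, a core of many homeodomain factors, and to CANNTG, the E-box of basic helix-loop-helix factors.
Grm6: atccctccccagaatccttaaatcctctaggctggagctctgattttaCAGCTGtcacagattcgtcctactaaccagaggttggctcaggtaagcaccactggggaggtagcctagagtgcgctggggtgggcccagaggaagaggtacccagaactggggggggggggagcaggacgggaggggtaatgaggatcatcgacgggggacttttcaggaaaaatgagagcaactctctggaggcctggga
Prkca: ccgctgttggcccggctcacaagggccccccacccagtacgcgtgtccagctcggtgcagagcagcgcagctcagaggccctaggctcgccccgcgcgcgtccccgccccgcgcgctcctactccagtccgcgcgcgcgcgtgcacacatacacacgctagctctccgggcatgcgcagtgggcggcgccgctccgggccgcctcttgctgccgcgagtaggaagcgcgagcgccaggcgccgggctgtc
Lhx4: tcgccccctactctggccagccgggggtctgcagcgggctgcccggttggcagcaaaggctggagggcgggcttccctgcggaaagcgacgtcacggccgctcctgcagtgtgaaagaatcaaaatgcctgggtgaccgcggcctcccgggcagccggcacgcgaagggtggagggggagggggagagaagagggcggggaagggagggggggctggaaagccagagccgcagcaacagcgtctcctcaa
Trpm1: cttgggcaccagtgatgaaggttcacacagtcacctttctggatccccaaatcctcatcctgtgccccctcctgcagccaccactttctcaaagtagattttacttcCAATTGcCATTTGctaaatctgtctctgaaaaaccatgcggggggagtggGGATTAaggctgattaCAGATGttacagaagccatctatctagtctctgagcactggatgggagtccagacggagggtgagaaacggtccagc

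Of the 10 members, 9 had an entry in the promoter table, and Cabp5 did not. TAATCC was found in 1 of the 9 windows, that of Trpm1, in which it lies 93 bases before the start and reads GGATTA on the strand shown. It was present in 6.33% of all 27457 promoter windows of the same length. The E-box was found in 6 of the 9 windows (Bhlhe23, Gng13, Grm6, Pcp2, Trpm1 and Vsx1) and in 65.2% of all windows. In Grm6 it lies 202 bases before the start, in Pcp2 92 bases, and in Trpm1 at 143, 136 and 77 bases. TAATTA was found in 0 of the 9 windows and in 4.94% of all. These matches describe the letters of the windows and were not tied to any measurement.

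At P4 the members fell into an upper and a lower group by FPKM. Grm6, Lhx4, Cabp5, Prkca and Pcp2 were at 5.18 FPKM or above in every library. Trpm1, Gng13, Bhlhe23, Scgn and Vsx1 were at 1.61 FPKM or below in every library. The mean over the 3 libraries ran from 30.8 FPKM for Grm6 and 25.2 for Lhx4 through 10.7 for Cabp5, 7.25 for Prkca and 6.57 for Pcp2 to 0.62 for Trpm1, 0.543 for Gng13, 0.433 for Bhlhe23, 0.153 for Scgn and 0.0533 for Vsx1. Neighbours in this order whose ranges over the libraries overlapped were Grm6 and Lhx4, Prkca and Pcp2, Trpm1 and Gng13, Gng13 and Bhlhe23, and Scgn and Vsx1. These ranges run over 3 conditions and hold the differences between them, so they are no measure of error. Grm6 and Lhx4 were at 37.44 and 20.89 FPKM in STZ but at 25.51 and 27.34 in Saline. The ranges did not overlap between Lhx4 and Cabp5, Cabp5 and Prkca, Pcp2 and Trpm1, or Bhlhe23 and Scgn. In the Buffer library 78.7% of all genes had a lower FPKM than Grm6, 77.1% a lower one than Lhx4 and 55.0% a lower one than Cabp5. So the label held in part at this age. Among the members of ON and rod bipolar cells, Grm6, Prkca and Pcp2 were at 25.51, 6.30 and 5.18 FPKM or above in every library. Trpm1 was at 1.61 or below, Gng13 at 1.26 or below and Bhlhe23 at 0.57 or below. Cabp5, of rod and some cone bipolar cells, was at 8.63 or above. Among those of cone bipolar cells, Lhx4 was at 20.89 or above while Scgn and Vsx1 were at 0.23 or below. Lhx4 is also a factor of developing photoreceptors, so whether the split followed bipolar types was left undecided.

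**Figure D1:**
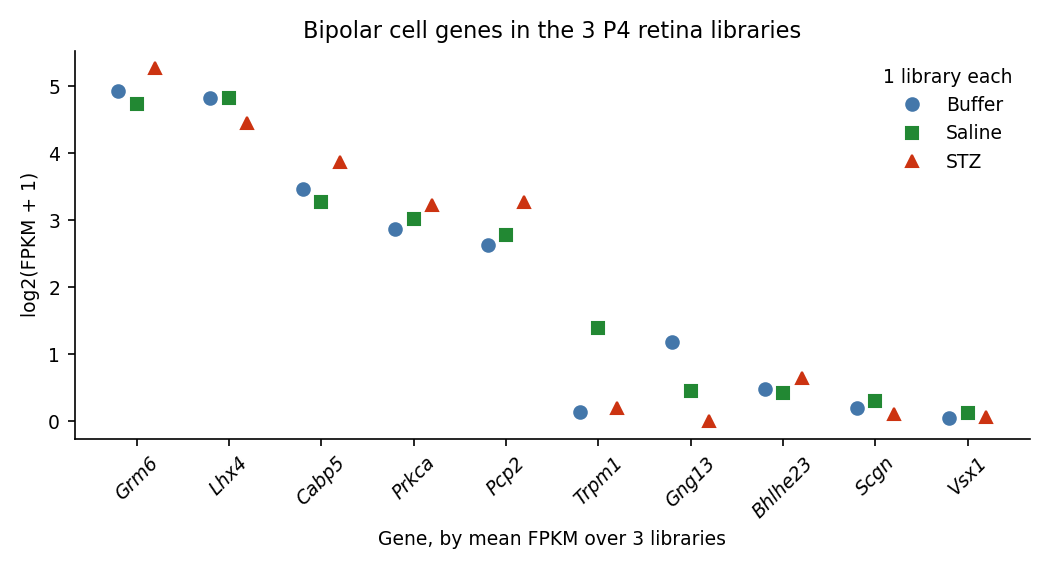
Levels of the 10 bipolar cell genes in the 3 P4 retina libraries, on the log2(FPKM + 1) scale, ordered by mean FPKM, with 1 point per library and no error bars because each condition has 1 library. The STZ points of Grm6, Cabp5, Prkca, Pcp2 and Bhlhe23 are the highest of their genes and those of Lhx4, Gng13 and Scgn the lowest, and the Saline point of Trpm1 (1.61 FPKM) stands above its Buffer and STZ points (0.10 and 0.15 FPKM).

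The precision of these levels differed with transcript length and abundance. A level of 1 FPKM was worth about 183 reads for Prkca and 102 for Grm6, but 6.48 for Pcp2 and 3.07 for Gng13. A mean of at least 10 reads over the libraries was reached by 7 members, all but Gng13, Scgn and Vsx1. The whole member set had 5458 reads in Buffer, 5311 in Saline and 6561 in STZ, and Grm6 gave more of them than any other member in each library.

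The comparison of STZ with its vehicle asks what the drug did to the retina beyond the buffer. Against Buffer, the members of the upper group other than Lhx4 were higher in the STZ library, by 1.26 to 1.67 times in read share, and Lhx4 was lower, at 0.764 times. By the fold used in the study, (FPKM + 1)/(FPKM + 1) with thresholds of 1.54 and 0.65, only Pcp2 was past the upper threshold and only Gng13, at 4 reads or fewer, was past the lower one. Over all genes 2.25% were above 1.54 and 1.04% below 0.65. The counting interval lay above 1 for 4 members (Grm6, Pcp2, Prkca and Cabp5), against 21.7% of all genes, and below 1 for 1 member (Lhx4), against 15.5%.

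The comparison with Saline shares the STZ library with that one and is no independent repeat of it. In the Saline comparison Grm6, Cabp5 and Prkca were again above and Lhx4 below, and Trpm1 was far below. No member passed 1.54, as did 2.04% of all genes, and Trpm1 alone was below 0.65, as were 1.75%. The interval lay above 1 for 3 members (Grm6, Prkca and Cabp5), against 22.1% of all genes, and below 1 for 2 (Lhx4 and Trpm1), against 19.5%. Intervals above 1 against both controls were found for Grm6, Prkca and Cabp5, 3 of 10, with 15.8% of all genes, and intervals below 1 against both for Lhx4, 1 of 10, with 12%. By FPKM alone, STZ was the highest of the 3 libraries for 5 members, with 41.5% of all genes, and the lowest for 3, with 32.2%.

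The controls differed from each other as well. Saline against Buffer had Trpm1 above 1.54, with 1.00% of all genes, and Gng13 below 0.65, with 0.429%. The interval lay above 1 for Trpm1 and Prkca, with 13.3% of all genes, and below 1 for Grm6, with 9.81%. The differences of Grm6 and Prkca between the controls were thus past counting error too. Over the members, STZ had a median log2 fold of 0.12 to Buffer and 0.07 to Saline, and Saline had one of 0.04 to Buffer. The same medians over all genes were 0.02, 0.00 and 0.01. With members that had too few reads for a fold left out, the medians were 0.18 over 9 members, 0.22 over 8 and -0.00 over 9. Gng13 was set at its bound in STZ against Buffer and left out in STZ against Saline. In Saline against Buffer it kept its FPKM fold.

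**Figure D2:**
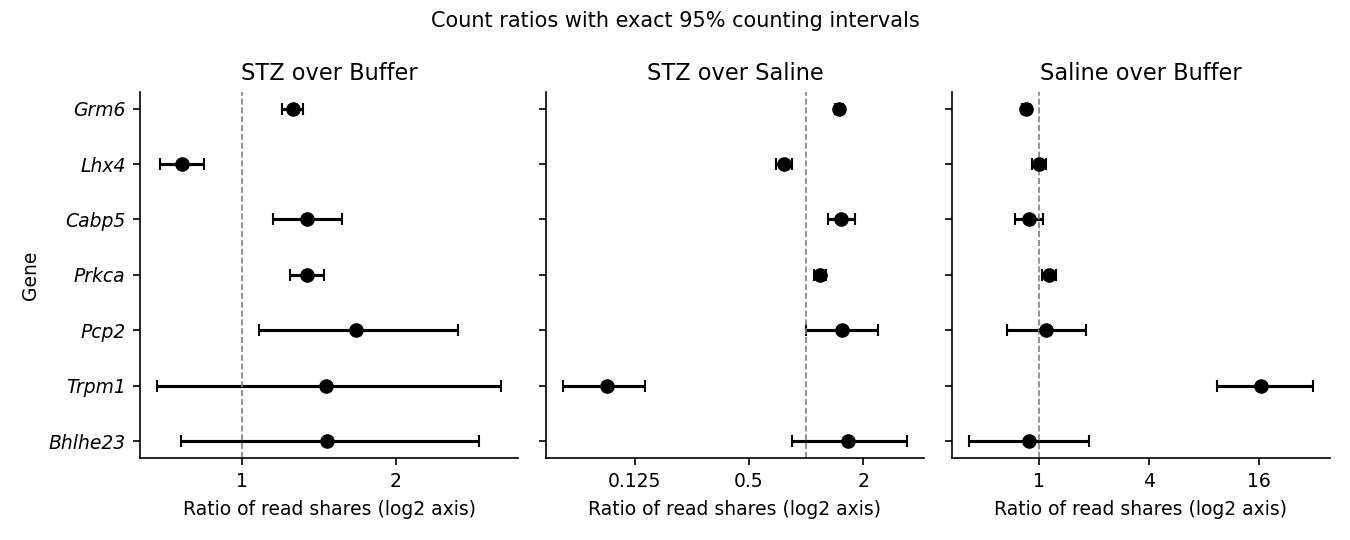
Ratio of read shares between libraries for the 7 members with a mean of at least 10 reads, on log2 axes that differ between panels, with exact 95% counting intervals as bars and a dashed line at 1. Grm6, Cabp5 and Prkca lie to the right of 1 and Lhx4 to the left in both STZ panels, and Trpm1 lies at 0.089 in STZ over Saline and at 16.4 in Saline over Buffer.

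Grm6, the glutamate receptor of ON bipolar dendrites (gene 24419), had 29.47 FPKM (3027 reads) in Buffer, 25.51 (2563) in Saline and 37.44 (3823) in STZ. Thus STZ was the highest and the Saline library the lowest. Its read share in STZ was 1.26 times that in Buffer (interval 1.2 to 1.32) and 1.49 times that in Saline (1.42 to 1.56). Between the controls the ratio of Saline to Buffer was 0.847 (0.804 to 0.893), so the controls did not have equal levels. The fold on the FPKM + 1 scale was 1.26 and 1.45, under the threshold against either control.

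Trpm1, the cation channel that this receptor gates (gene 361586), is also made by melanocytes and other pigment cells. It had 0.10 FPKM (13 reads) in Buffer, 1.61 (213) in Saline and 0.15 (19) in STZ. Saline stood apart, and Buffer and STZ were alike within counting error, with a ratio of 1.46 whose interval ran from 0.684 to 3.21. The read share in Saline was 16.4 times that in Buffer (9.38 to 31.3), and that in STZ was 0.089 times that in Saline (0.0525 to 0.142). On the FPKM + 1 scale, which understates changes of low genes, these were folds of 2.37 and 0.441.

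The Saline library also held more RNA of several pigment cell genes. The lists of pigment and of ciliary markers were drawn up with earlier results of these data known. Of 10 markers of pigment epithelium and melanocytes, 7 were highest in Saline by FPKM. So were 33.5% of all genes and 3 of the 10 bipolar members (Trpm1, Scgn and Vsx1). Of the same markers 5 were above 1.54 in Saline against Buffer, beside 1.00% of all genes, and 4 were below 0.65 in STZ against Saline, beside 1.75%. Their summed level was 57.3 FPKM in Buffer, 74.2 in Saline and 56.6 in STZ, and their summed reads were 1051, 2156 and 1094. Pmel, a structural protein of melanosomes, had 252, 940 and 240 reads. Ttr, a thyroxine and retinol carrier abundant in pigment epithelium, went the other way with 477, 398 and 456 reads. Mitf and Best1, chosen for mention after their values were seen, were highest in STZ. Mitf had 86, 108 and 112 reads and Best1 had 5, 5 and 7. Tyr, Tyrp1 and Dct, the enzymes of melanin synthesis, were chosen for mention after their values were seen: Tyr had 16, 118 and 14 reads, Tyrp1 had 76, 236 and 81, and Dct had 134, 325 and 173. Rpe65, the isomerase of the pigment epithelium, was at or near 0 throughout, with 0, 2 and 2 reads. It is 1 of the 7 by FPKM (0.07 in Saline, 0.05 in STZ), though its reads in those libraries were equal. All 6 markers of ciliary and iris epithelium were likewise highest in Saline, with summed levels of 56.4, 205 and 54.0 FPKM. Among them Aldh1a1, a retinaldehyde dehydrogenase, had 1904, 6838 and 1904 reads and Gja1, a gap junction protein, had 169, 876 and 214. The part of these cells in the Trpm1 values was not tested. Trpm1 overlaps the microRNA gene Mir211 in the RefSeq annotation.

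**Figure D3:**
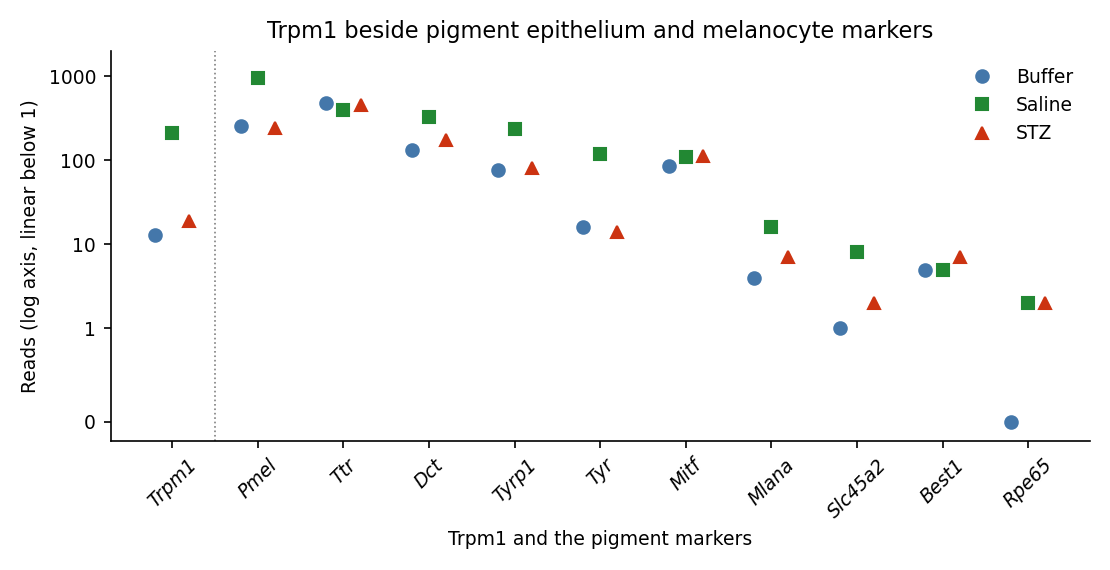
Reads of Trpm1 (left of the dotted line) and of 10 pigment epithelium and melanocyte markers in the 3 libraries, on an axis that is logarithmic above 1 read and linear below it. Trpm1, Pmel, Dct, Tyrp1, Tyr, Mlana and Slc45a2 have their highest point in Saline. Mitf and Best1 have theirs in STZ, Ttr has its lowest in Saline, and Rpe65 has at most 2 reads.

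Gng13, a G protein γ subunit of the ON cascade (gene 685451), had 1.26 FPKM in Buffer, 0.37 in Saline and 0 in STZ. These levels rest on 4, 1 and 0 reads. The floor of 3 counts is a share of 0.136 CPM (counts scaled by library total) in STZ. Set at that floor, STZ would be 1.34-fold lower than Buffer, a nominal bound that leaves out counting error. The counting interval of STZ over Buffer did not lie below 1 for Gng13, so a decrease was not detectable at this depth. Saline over Buffer was 0.25, with an interval from 0.00508 to 2.53, and between STZ and Saline no fold is given because both are under 3 reads. The call of Gng13 past 0.65 thus rested on 4 reads. Its locus overlaps Chtf18 in RefSeq, and whether the reads were counted by strand is not stated.

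Pcp2, a GoLoco protein that binds Gαo in ON bipolar cells and in cerebellar Purkinje cells (gene 304195), had 5.18 FPKM in Buffer, 5.86 in Saline and 8.67 in STZ. Its estimated reads were 34, 37 and 56.76, the last the only fractional value among the members. STZ was the highest, and the controls were close. The read share was 1.67 times that in Buffer (1.08 to 2.64) and 1.54 times that in Saline, where the interval reached below 1 (0.999 to 2.39). Its FPKM fold was 1.56 against Buffer, just past 1.54, and 1.41 against Saline. Under the TMM and median-of-ratios scalings it no longer passed 1.54. Pcp2 overlaps Pet100 in RefSeq.

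The partners of the receptor were taken as a list of 9, of which 8 were in the table. None of the 8 passed a threshold in STZ against either control. STZ was the highest of the 3 libraries for 7 of the 8, with 41.5% of all genes. The median log2 fold was 0.15 against Buffer and 0.25 against Saline. Gnb3, the Gβ subunit of the cascade that cone photoreceptors also use, had 260.59 FPKM in Buffer, 277.47 in Saline and 342.26 in STZ, with ratios of 1.31 (1.27 to 1.35) and 1.23 (1.2 to 1.27). Gnao1, the gene of Gαo, had 74.39, 68.77 and 81.43 FPKM, with ratios of 1.03 (0.987 to 1.07) and 1.07 (1.03 to 1.12). Both genes were at 68.77 FPKM or above in each library, where Trpm1 was at 1.61 or below and Gng13 at 1.26 or below.

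Prkca, the protein kinase C used as the standard marker of rod bipolar cells (gene 24680), had 6.30 FPKM (1145 reads) in Buffer, 7.10 (1295) in Saline and 8.35 (1542) in STZ. STZ was again the highest, with Saline between it and Buffer. The ratio was 1.34 against Buffer (1.24 to 1.45) and 1.19 against Saline (1.1 to 1.28). Saline was itself 1.13 times Buffer (1.04 to 1.23). Its FPKM folds of 1.28 and 1.15 were under the threshold.

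Cabp5, a calcium-binding protein of rod bipolar cells and some cone bipolar cells (gene 365194), had 9.99 FPKM (279 reads) in Buffer, 8.63 (245) in Saline and 13.53 (375) in STZ. Saline and Buffer differed within counting error, with a Saline to Buffer ratio of 0.879 (0.737 to 1.05). STZ lay above both, at 1.34 times Buffer (1.15 to 1.57) and 1.53 times Saline (1.3 to 1.8). Its FPKM folds were 1.32 and 1.51, the latter just under the threshold. At a pseudocount of 0.1 it passed 1.54 against Saline.

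Scgn, the calcium sensor secretagogin of cone bipolar cells (gene 306942), had 0.15, 0.23 and 0.08 FPKM in Buffer, Saline and STZ. At 2, 3 and 1 reads it was at or under the limit of 3 counts in every library, and no fold is given. It overlaps a pseudogene in RefSeq.

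Grm6, Prkca, Cabp5 and Pcp2 thus lay above both controls in STZ by FPKM, and of these Grm6 weighed most in the total. The summed reads of all members were 1.2 times those of Buffer in STZ (1.16 to 1.24) and 1.23 times those of Saline (1.19 to 1.28). Without Grm6 the sums were 2431, 2748 and 2738 reads, and the ratios 1.12 (1.06 to 1.19) and 0.994 (0.942 to 1.05). Without Grm6 the summed reads showed no excess over Saline, but Trpm1 gave 213 of the Saline reads and 19 of the STZ reads. Lhx4 also had fewer reads in STZ than in Saline (715 and 932). Prkca (1542 and 1295), Cabp5 (375 and 245) and Pcp2 had more. The sum thus does not show that Grm6 alone carried the excess.

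Other receptors, channels and calcium or vesicle proteins of bipolar cells were looked at as a list of 11. None passed a threshold against either control, and STZ was the highest library for 9 of the 11, with 41.5% of all genes. The median log2 fold was 0.18 against Buffer and 0.14 against Saline. Grik1, a kainate receptor subunit of OFF bipolar cells, had 12.09 FPKM in Buffer, 13.23 in Saline and 15.58 in STZ, with ratios of 1.34 (1.22 to 1.46) and 1.21 (1.11 to 1.32). Car10, a protein related to the carbonic anhydrases, had 3.74, 4.14 and 4.68 FPKM, with ratios of 1.25 (1.02 to 1.54) and 1.14 (0.934 to 1.4).

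The transcription factors among the members differed from each other. Lhx4, a LIM homeodomain factor of cone bipolar cells and developing photoreceptors (gene 360858), had 27.35 FPKM (934 reads) in Buffer, 27.34 (932) in Saline and 20.89 (715) in STZ. Both controls were almost equal, with a ratio of 0.999 (0.911 to 1.09), and STZ was below both. The ratio was 0.764 against Buffer (0.692 to 0.843) and 0.765 against Saline (0.693 to 0.845), and the FPKM fold of 0.772 against each did not reach 0.65. Lhx4 overlaps LOC120096286 in RefSeq.

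Bhlhe23, a basic helix-loop-helix factor needed for rod bipolar cells to mature (gene 499952), had 0.39 FPKM (17 reads) in Buffer, 0.34 (15) in Saline and 0.57 (25) in STZ. STZ was the highest, but both intervals included 1, at 1.47 against Buffer (0.762 to 2.9) and 1.66 against Saline (0.843 to 3.39). Vsx1, a homeodomain factor of cone bipolar cells (gene 689704), had 0.03, 0.09 and 0.04 FPKM from 3, 7 and 4 reads. Its ratios were 1.33 (0.225 to 9.09) against Buffer and 0.57 (0.122 to 2.24) against Saline, and a difference was not detectable at this depth. Vsx1 overlaps a long noncoding RNA in RefSeq.

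Among 11 further factors of bipolar specification and subtype, STZ was the highest library for 5 and the lowest for 4. These counts were near the shares over all genes, 41.5% and 32.2%. The median log2 folds were 0.09 against Buffer and 0.01 against Saline. Irx5, an Iroquois factor of cone bipolar cells, was the only one past a threshold. It had 21.26 FPKM (614 reads) in Buffer, 21.41 (613) in Saline and 12.70 (376) in STZ, with ratios of 0.611 (0.536 to 0.696) and 0.612 (0.537 to 0.697). Like Lhx4, Irx5 had nearly the same level in both controls and a lower one in STZ. Neurod4, a proneural factor of bipolar precursors, had 220.31, 217.50 and 174.39 FPKM, with ratios of 0.792 (0.773 to 0.811) and 0.803 (0.784 to 0.823). Otx2, the homeodomain factor shared by photoreceptors and bipolar cells, had 192.29, 176.95 and 168.03 FPKM, with ratios of 0.885 (0.864 to 0.907) and 0.962 (0.938 to 0.987).

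**Figure D4:**
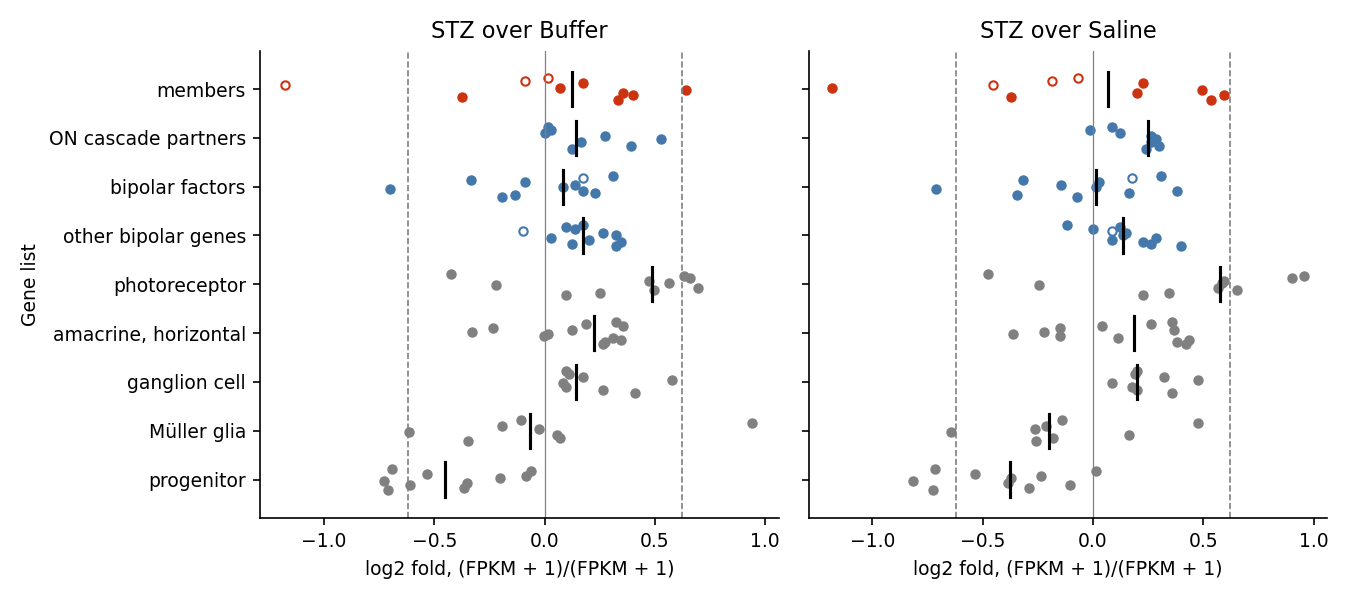
Log2 fold of (FPKM + 1) in STZ over Buffer (left) and over Saline (right) for the 10 bipolar cell genes (red), the lists of other bipolar genes (blue) and markers of other retinal cells (grey). Each point is 1 gene, hollow where its mean was under 10 reads, black bars are list medians, and dashed lines are the thresholds of 0.65 and 1.54. The member medians are 0.12 and 0.07, between those of the photoreceptor markers (0.49 and 0.58) and the progenitor markers (-0.45 and -0.38).

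Markers of other retinal cells differed between the libraries too, and lie beside the bipolar values as follows. The 10 photoreceptor markers summed to 1326 FPKM in Buffer, 1250 in Saline and 1645 in STZ, and 8 of them were highest in STZ. The 10 progenitor markers summed to 1113, 1093 and 783 FPKM, and 9 of them were lowest in STZ. Of 12 amacrine and horizontal markers 8 were highest in STZ, as were 8 of 8 ganglion cell markers, while 5 of 8 Müller glia markers were lowest there. Over all genes STZ was the highest library for 41.5% and the lowest for 32.2%. The 12 microglia markers summed to 61.2, 77.8 and 195 FPKM and the 15 lens markers to 18.5, 49.1 and 300 FPKM, each highest in STZ. The part of these shifts in the ratios of Grm6, Prkca, Cabp5, Pcp2 and Lhx4 was not tested.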

How the data were processed

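RNA of P4 rat retina was read in 3 libraries (Buffer, Saline, STZ), grouped by their treatment labels. The authors made TruSeq libraries and mapped reads to rn6 with TopHat2 after FastQC (per the labels), discarding reads with several locations, and calculated FPKM with an R script. The deposited table gives FPKM, TPM and an estimated count per gene. The annotation and counting tool are not given in the sources used here. Of the deposited estimated counts 12.9% to 13.2% were fractional, and they were rounded to whole numbers. Totals per library were 21992701, 21977846 and 22031241. The series table and library tables held equal values.

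Folds were (FPKM + 1)/(FPKM + 1), with the study's thresholds of 1.54 and 0.65 and no test. Ratios of read shares had exact Clopper-Pearson intervals at 95%, and 3 counts was the floor. A replicated count test was not possible with 1 library per condition. The code was tested on simulated data. Results were recomputed with a pseudocount of 0.1, with thresholds of 2 and 0.5, with genes averaging at least 10 counts, with TMM (edgeR 4.0.16) and median-of-ratios (DESeq2 1.42.0) scaling in R 4.3.3, with deposited TPM, with CPM, and against the mean of both controls. Other steps used Python 3.11.15, pandas 2.3.3 and scipy 1.17.1. The members and lists were chosen with earlier results of these data known. The rule for naming genes took all 10 members and, per list, the 2 genes with the highest mean FPKM and those that averaged at least 10 counts and passed a threshold in STZ against each control. It was applied in the text to the bipolar, pigment and ciliary lists. Genes named outside this rule were Rpe65, as the defining marker at or near 0, and those stated in the text to be chosen after their values were seen. Promoters were matched by gene ID to RefSeq (GRCr8), and overlapping genes were taken from the same annotation.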

Additional observations from a re-analysis of the deposited data

How the results depend on the processing

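No member past a threshold in the values of the report changed direction under any alternative run, but Trpm1 in STZ against Buffer, past neither threshold there, turned below 0.65 against the mean of both controls. In STZ against Buffer, the count above the upper threshold went from 1 (Pcp2) to 0 with thresholds of 2 and 0.5, TMM, median-of-ratios, CPM or the mean of both controls. The count below went from 1 (Gng13) to 0 with a mean of at least 10 counts or CPM and to 2 with the mean of both controls (Trpm1 and Gng13). In STZ against Saline, the count above went from 0 to 1 with a pseudocount of 0.1 (Cabp5). The count below went from 1 (Trpm1) to 3 with a pseudocount of 0.1 (Trpm1, Gng13 and Scgn) and to 2 with TPM (Trpm1 and Gng13). In Saline against Buffer, the count below went from 1 (Gng13) to 0 with thresholds of 2 and 0.5, a mean of at least 10 counts or CPM. The median log2 fold in STZ against Saline turned from 0.07 to -0.08 with a pseudocount of 0.1, but was 0.23 with a mean of at least 10 counts. That in STZ against Buffer went from 0.12 to 0.33 and 0.34 in the same runs. Trpm1 in STZ had a log2 fold of -0.69 against the mean of both controls, which holds the high Saline value, but 0.06 against Buffer alone. Its log2 fold in STZ against Saline ran from -2.77 to -1.18 over the alternatives and that in Saline against Buffer from 1.24 to 3.10. For 4 further members, the log2 folds of STZ against Buffer are given with the run against the mean of both controls included. Grm6 ran from 0.30 to 0.43, Prkca from 0.28 to 0.42, Cabp5 from 0.37 to 0.49 and Lhx4 from -0.41 to -0.37. The values 0.43, 0.28 and 0.49 came from that run and not from Buffer alone. Depth limits Gng13, Scgn and Vsx1, with at most 7 reads each. No paired analysis was possible because each condition has 1 library, and for the same reason no replicate could be left out.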
